A study of Mus musculus with 4 samples.

Results

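The platelet-derived growth factor (PDGF) genes were examined in mouse microvascular smooth muscle cells, a cell type of small vessel walls. The 7 genes were 3 receptor genes, Pdgfra, Pdgfrb and Pdgfrl, and 4 ligand genes, Pdgfa, Pdgfb, Pdgfc and Pdgfd. They were found by matching the accession of each non-control probe to a RefSeq gene symbol, and were read by 11 of the 41174 probes on the array, in 20 spots. In all, probes of 18217 named genes were matched. All cells came from male C57BL6 Rap1a knockout mice, were exposed to virus in serum-free medium overnight as they were plated, and recovered for 48 h in 0.5% serum after growth in 10% serum. The control RNA was from cells that carried an empty shuttle vector and the other from cells with a shuttle vector called RapCA, which the labels do not spell out. Each of 4 two-colour arrays on 1 slide held 1 RNA of each kind, the empty vector in Cy5 and RapCA in Cy3. The labels call the arrays biological replicates and do not say whether separate cultures or animals were used, so p-values measure the spread between these samples only, which may be technical.

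PDGFs are secreted dimers that bind receptor tyrosine kinases on mesenchymal cells. In vessel walls they are known for the recruitment and growth of smooth muscle cells and pericytes. The product of Pdgfra binds the A, B and C chains and that of Pdgfrb binds the B and D chains. The C and D chains are released as latent forms that a protease must cut, whereas the A and B chains are cut inside the cell. Pdgfrl encodes a protein that resembles the ligand-binding part of the receptors and has no kinase.

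Of the 7 genes, 6 were measured above background and 4 of these were higher in the channel labelled RapCA: Pdgfrl by 9.68-fold, Pdgfrb by 3.44-fold, Pdgfd by 2.01-fold and Pdgfc by 1.77-fold, each by its brightest probe. Neither Pdgfra nor Pdgfa passed the test, and Pdgfb was not above background. None was lower. The question this comparison answers is which transcripts differ between knockout cells given the empty vector and those given RapCA. A call is an adjusted p under 0.05 in limma's test of the mean log2 ratio of Cy3 over Cy5 against 0, adjusted over all 23511 probes tested. Of all 12396 genes tested, by their brightest probe, 53.8% were called, 28.9% as higher and 24.9% as lower, against 4 of 6 PDGF genes higher and none lower. By probe, 5 of 9 PDGF probes were called, all higher, where 49.6% of all tested probes were called, 26.4% as higher and 23.2% as lower. Pdgfrl, Pdgfrb and Pdgfd were called and at least 2-fold higher, as were 9.16% of all genes, while 7.46% were called and at least 2-fold lower, and 13.1% of all probes were called with a difference of at least 2-fold in either direction. Pdgfd only just reached 2-fold, with a mean log2 ratio of 1.01, and fell to 0.87 without replicate 1. With another scaling, median centring, neither Pdgfc nor Pdgfd passed. The median log2 ratio of the 6 PDGF genes was 0.92, against 0.02 for all genes. In these bulk samples, more cells of a type and more RNA per cell cannot be told apart.

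Some properties of the arrays bear on every value. Since the dyes were never exchanged, an effect of the dye and one of the vector cannot be told apart. The probe for Rap1a, the gene deleted in these mice, was lower in the channel labelled RapCA (log2 ratio -1.06 ± 0.44, SD, n = 4; limma adjusted p = 0.00206) and above background in both channels on every array. A deleted gene would give no such signal in a probe of the deleted part, and where this probe lies relative to the deletion is not known here. Signal in both channels would remain if the dyes were exchanged, and the labels do not say what RapCA encodes. This probe therefore cannot check the dye labels. Directions follow those labels, and if they were exchanged every sign turns. Replicate 1 stood apart: its ratios correlated at 0.69 to 0.78 with the other arrays over 23499 probes, against 0.93 to 0.98 among replicates 2 to 4. Its Cy5 channel, labelled vector, had 51.3% of probes above background, against 60.2% to 62.0% on the others. Results that rest on it are given with and without it.

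RefSeq windows upstream of the gene start, in build GRCm38.p6, were found for 4 of the PDGF genes. None was found for Pdgfrl or Pdgfb. Pdgfrb was not part of the search, so no window is given for it. Shown are the windows of the 2 ligand genes called higher, Pdgfc and Pdgfd, and of Pdgfra, which did not pass. Each gives the 250 bases before the start, 5′ to 3′, with capitals for matches to the motifs searched.
Pdgfc, chr3:81036166-81036415, plus strand: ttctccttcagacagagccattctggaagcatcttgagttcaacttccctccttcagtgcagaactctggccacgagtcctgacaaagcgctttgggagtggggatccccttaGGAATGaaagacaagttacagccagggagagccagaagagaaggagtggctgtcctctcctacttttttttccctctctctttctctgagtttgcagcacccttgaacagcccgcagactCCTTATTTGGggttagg
Pdgfd, chr9:6168236-6168485, plus strand: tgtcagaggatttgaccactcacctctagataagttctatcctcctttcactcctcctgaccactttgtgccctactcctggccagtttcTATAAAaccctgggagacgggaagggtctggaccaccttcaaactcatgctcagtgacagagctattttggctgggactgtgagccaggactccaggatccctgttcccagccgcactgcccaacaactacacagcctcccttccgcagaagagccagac
Pdgfra, chr5:75152001-75152250, plus strand: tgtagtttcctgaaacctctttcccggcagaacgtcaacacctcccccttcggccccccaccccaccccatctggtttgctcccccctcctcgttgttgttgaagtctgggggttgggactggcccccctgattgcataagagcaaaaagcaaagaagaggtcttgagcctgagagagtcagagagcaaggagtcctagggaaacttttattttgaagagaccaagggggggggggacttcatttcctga
The motifs, searched on both strands, were the CArG box bound by SRF, a GC box (GGGCGG), an AP-1 element (TGANTCA), an EGR-type element (GCGNGGGCG, which can overlap a GC box), a TATA box (TATAAA), a TEAD element (GGAATG) and an E-box (CACGTG). The Pdgfc window held 1 CArG box, which starts 17 bases before the gene start, and 1 TEAD element, which starts 137 bases before it. The Pdgfd window held 1 TATA box, starting 160 bases before the gene start, and the Pdgfra window held none of the motifs. Over all 32851 windows of this length, 1.47% held a CArG box, 12.6% a TEAD element and 12.4% a TATA box. The other shares were 32.7% for the GC box, 6.75% for AP-1, 4.7% for the EGR-type element and 6.02% for the E-box. Pdgfa had 2 windows, with 66.4% and 72.4% G and C and 1 and 2 GC boxes, against 50.8%, 53.6% and 54.4% G and C for Pdgfc, Pdgfd and Pdgfra and a median of 52.4% over all windows. A match describes these letters only, and no measurement of binding was made.

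Among the receptors, Pdgfrb was higher in the channel labelled RapCA on every array. Levels are log2 of background-corrected and normalised brightness, and serve to compare the channels of a probe, not probes with each other. In the channel labelled vector the Pdgfrb levels were 12.72, 12.73, 12.49 and 12.24 on replicates 1 to 4. In the channel labelled RapCA they were 14.42, 14.22, 14.27 and 14.39. The lowest of these lay above the highest vector level, so the channels did not overlap. The log2 ratio was 1.78 ± 0.27 (SD, n = 4; limma adjusted p = 7.50e-05), with a 95% interval of 1.48 to 2.08. It was 1.81 ± 0.33 without replicate 1.

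Pdgfrl had the largest difference of the 7 genes, and its ratio ranked at place 21 of the 12396 genes tested in the labelled direction, and at place 54 by size in either direction. Its vector levels were 10.24, 10.20, 10.18 and 9.95 on replicates 1 to 4, and its RapCA levels were 13.50, 13.15, 13.40 and 13.63. Before normalisation the signal over local background was 763.5, 1730, 1687 and 1254 scanner units in the channel labelled vector and 9932.5, 8138, 8098 and 10179.5 in the channel labelled RapCA. No array came near an overlap. The log2 ratio was 3.28 ± 0.30 (SD, n = 4; limma adjusted p = 1.58e-05), with an interval of 2.96 to 3.59. Both Pdgfrb and Pdgfrl passed under every alternative tried.

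Pdgfra, the alpha receptor and a marker of fibroblast-like cells, did not pass, and its value depended on replicate 1. Its brighter probe was printed in 10 spots. The log2 ratios were 1.13, -0.06, -0.12 and -0.26 on replicates 1 to 4, with a mean of 0.17 ± 0.64 (SD, n = 4; limma adjusted p = 0.561) and a 95% interval of -0.36 to 0.71. Without replicate 1 the mean was -0.14 ± 0.11 (n = 3; limma adjusted p = 0.138). The spots of an array agreed closely, with SDs over spots of 0.090, 0.046, 0.043 and 0.041, so the gap between arrays was far wider than the spread between spots of 1 array. The gap lay in the channel labelled vector, where the median signal over background was 435 on replicate 1 and 3452, 4323.5 and 3613 on the others. In the channel labelled RapCA it was 1505, 1928.5, 1954 and 1809. A second, dim Pdgfra probe gave 0.10, 0.33, 0.09 and -0.02 (mean 0.12 ± 0.15; limma adjusted p = 0.354). On replicate 1 it was not above background in the channel labelled vector, so its ratio there is only a bound. The scanner software's own ratios for it were 0.89, 0.34, 0.24 and 0.03.

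**Figure D1:**
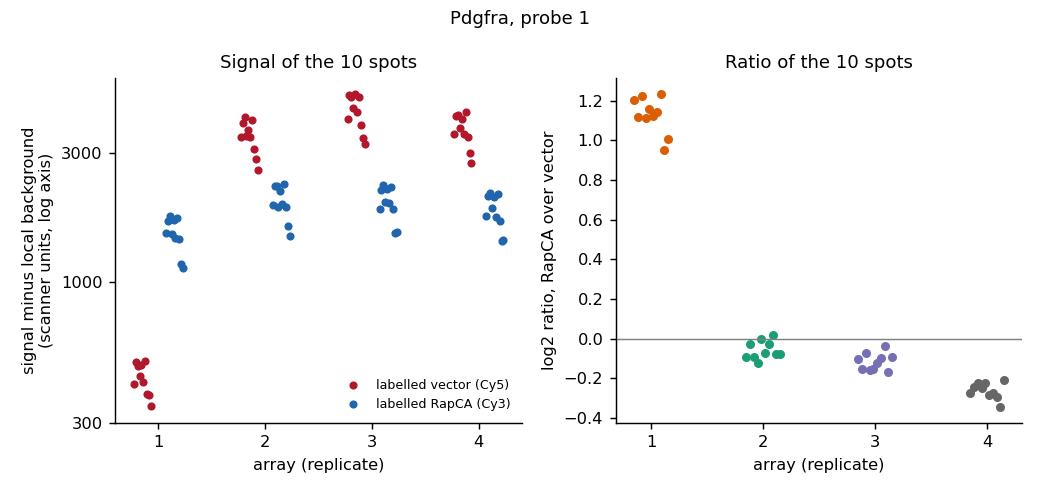
The 10 spots of the brighter Pdgfra probe on each array. Left, signal minus local background in scanner units on a log axis, in the channels labelled vector (red) and RapCA (blue). Right, the log2 ratio of each spot after normalisation. On replicate 1 the vector signal has a median of 435 and the ratios average 1.13; on the other arrays all vector spots lie above the RapCA spots of the same array and the ratios average -0.26 to -0.06.

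The ratio of Pdgfrb exceeded that of the brighter Pdgfra probe on 4 of 4 arrays, by 0.58, 1.55, 1.89 and 2.41, a mean difference of 1.61 ± 0.77. An exact two-sided sign-change permutation test gave p = 0.125, the smallest that 4 arrays allow. By root mean square difference over the 4 ratios, the genes nearest to Pdgfra were Afdn (0.032), Ptpn11 (0.033) and Arhgap21 (0.040). Those nearest to Pdgfrb were Cstad (0.045), Sft2d2 (0.091) and Zbtb4 (0.097). These were the closest of all tested genes on 4 values only, and whether they vary together was not tested. Being chosen for ratios close to those of Pdgfra, Afdn, Ptpn11 and Arhgap21 necessarily had a like replicate 1 ratio, at 1.10, 1.11 and 1.15. None was called, as Pdgfra was not.

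Among the ligands, Pdgfc and Pdgfd, the chains released in latent form, were higher in the channel labelled RapCA. The brighter Pdgfc probe had vector levels of 11.67, 12.69, 12.80 and 12.72 on replicates 1 to 4 and RapCA levels of 13.20, 13.40, 13.40 and 13.18. The channels did not overlap, and replicate 1 had the lowest vector level. Its log2 ratios were 1.53, 0.71, 0.60 and 0.46, with a mean of 0.83 ± 0.48 (SD, n = 4; limma adjusted p = 0.00818). The second Pdgfc probe moved the same way, with 1.81, 0.87, 0.60 and 0.52 and a mean of 0.95 ± 0.59 (limma adjusted p = 0.00893). Without replicate 1 the means were 0.59 ± 0.13 and 0.66 ± 0.18, and both still passed.

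Pdgfd had vector levels of 9.19, 10.24, 9.96 and 10.00 and RapCA levels of 10.61, 11.21, 10.99 and 10.60 on replicates 1 to 4. Again replicate 1 had the lowest vector level and the channels did not overlap. The log2 ratios were 1.42, 0.97, 1.04 and 0.60, with a mean of 1.01 ± 0.34 (SD, n = 4; limma adjusted p = 0.00120), and 0.87 ± 0.24 without replicate 1. In all, 5 of the 9 PDGF probes tested had every RapCA level above every vector level, against 23.5% of all probes, and 19.2% had every vector level above every RapCA level. With median centring, which shifts all ratios of an array by 1 value where loess follows brightness, Pdgfc (limma adjusted p = 0.335 and 0.260) and Pdgfd (0.111) did not pass. Over all probes that setting turned the share of calls that were higher from 53.3% to 40.1%. With that centring the brighter Pdgfc probe had ratios of 1.84, 0.23, -0.06 and 0.01.

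Pdgfa did not pass with either probe. The brighter probe had vector levels of 14.37, 14.21, 14.19 and 14.16 and RapCA levels of 14.33, 14.21, 14.27 and 14.31. The channels overlapped, and the log2 ratio was 0.05 ± 0.09 (SD, n = 4; limma adjusted p = 0.705) with a 95% interval of -0.18 to 0.27. The second probe gave -0.29, 0.09, 0.37 and 0.44, with a mean of 0.15 ± 0.33 (limma adjusted p = 0.406). Without replicate 1 it passed, at 0.30 ± 0.18 (limma adjusted p = 0.0251), and with array weights, at 0.28 (limma adjusted p = 0.00326), while the brighter probe passed in neither. With median centring both means were below 0, at -0.43 and -0.05.

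Pdgfb, whose product is the main ligand of the beta receptor and in vessels is made chiefly by endothelium, was not well above background in either channel on any array with either of its 2 probes. Signals minus local background ran from -11 to 19 scanner units. No ratio was tested and no fold is given.

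**Figure D2:**
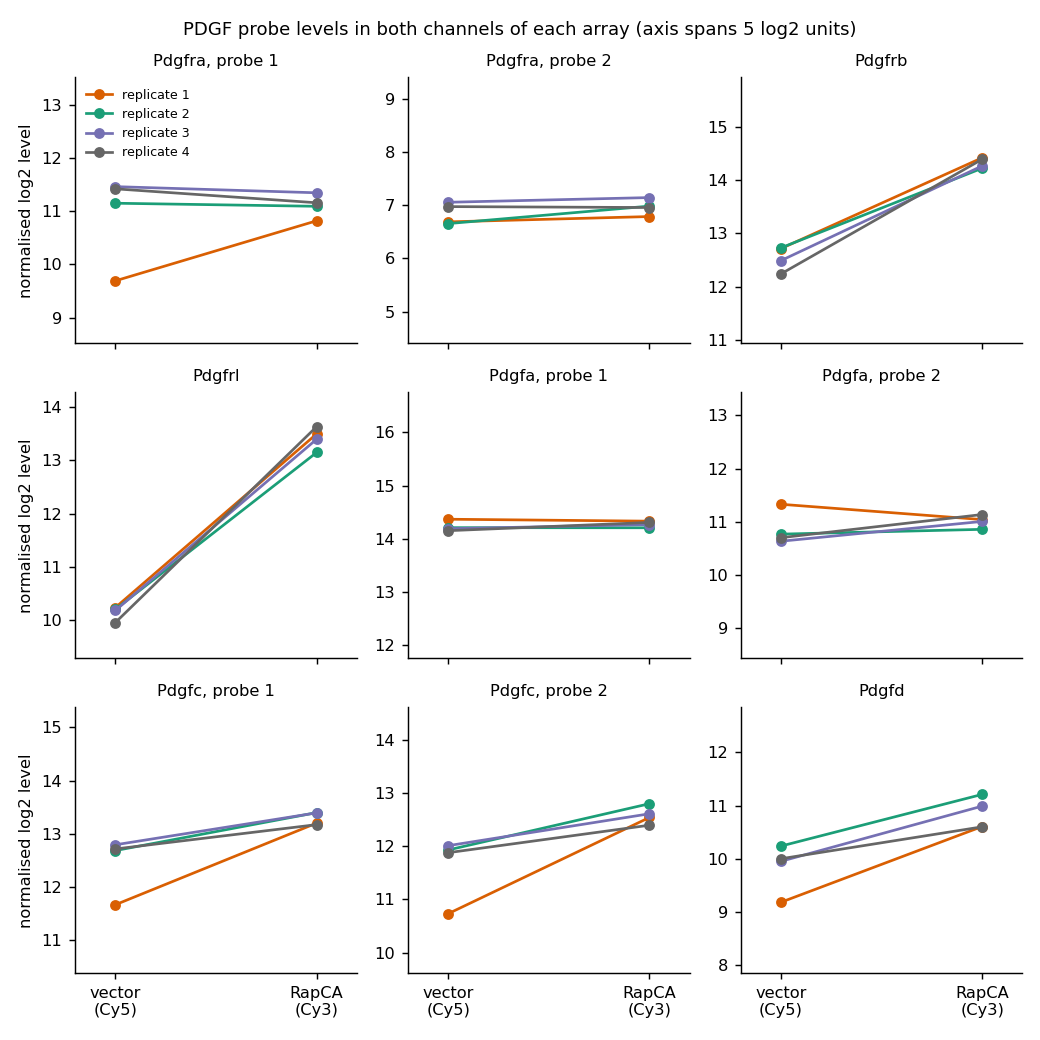
Normalised log2 levels of the 9 PDGF probes above background, in the channel labelled vector (Cy5) and the channel labelled RapCA (Cy3). Lines join the channels of an array, colours mark replicates 1 to 4, and each vertical axis spans 5 log2 units. Pdgfrl and Pdgfrb climb on every array, and the vector levels of Pdgfra probe 1, Pdgfc and Pdgfd are lowest on replicate 1.

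**Figure D3:**
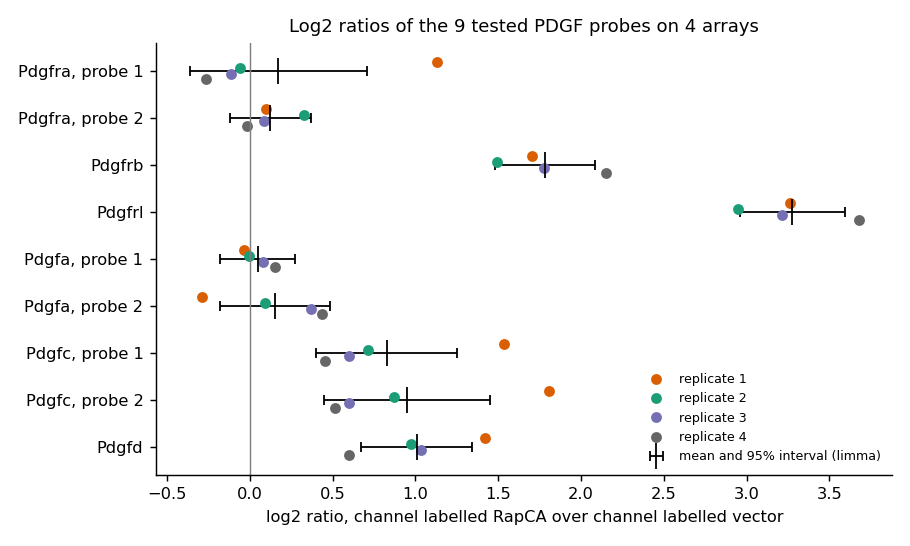
Log2 ratios, RapCA (Cy3) over vector (Cy5), for the 9 tested probes, with a point for each array, a vertical mark for the mean and a bar for the 95% interval from limma. The intervals of Pdgfrb, Pdgfrl, Pdgfc and Pdgfd lie above 0, and those of Pdgfra and Pdgfa include 0.

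Replicate 1 moved some PDGF genes and left others in place. Its ratio exceeded the mean of the other arrays by 1.27 for the brighter Pdgfra probe, more than for 99.3% of tested probes. The excess was 0.94 and 1.15 for Pdgfc and 0.55 for Pdgfd, more than for 95.7%, 98.5% and 81.5% of tested probes. For Pdgfrb, Pdgfrl and the brighter Pdgfa probe the difference was -0.10, -0.02 and -0.11. The second Pdgfa probe went the other way, with a ratio difference of -0.59 and a vector level above the others by 0.63. The vector levels of replicate 1 lay below the mean of the others by values of -1.65 for Pdgfra, -1.06 and -1.21 for Pdgfc and -0.88 for Pdgfd, and above it by 0.23 for Pdgfrb and 0.12 for Pdgfrl. The corresponding RapCA differences were smaller, at -0.38, -0.12, -0.06, -0.33, 0.13 and 0.10. The median signal over background on that array was 37 scanner units in the channel labelled vector, against 75.5 to 83.5 on the others, and its part in these values was not tested.

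**Figure D4:**
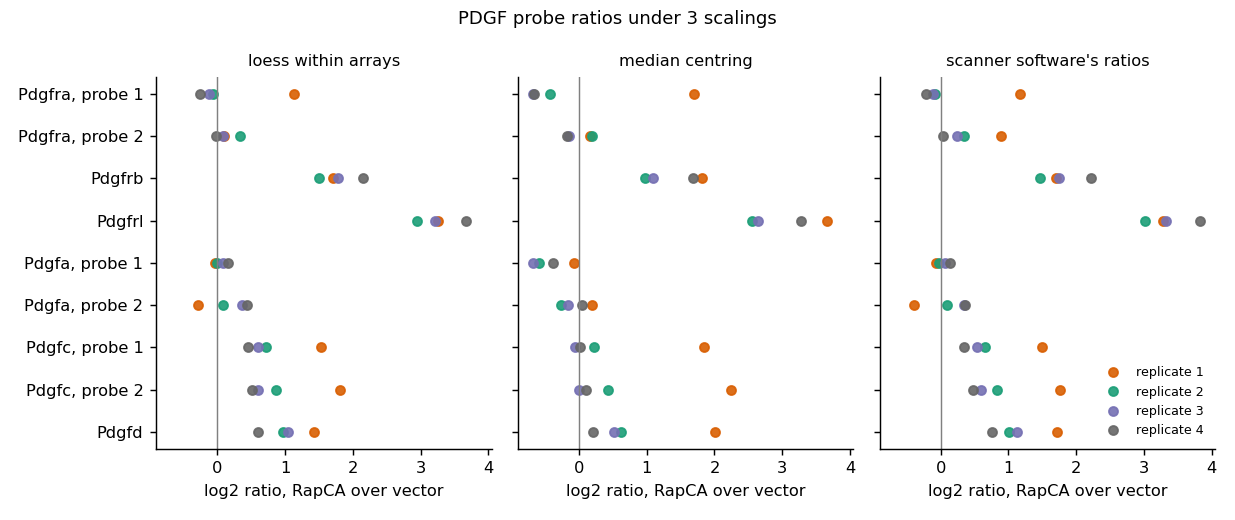
Log2 ratios of the 9 PDGF probes on each array under the 3 scalings, loess within arrays (left), median centring (middle) and the scanner software's own ratios (right). Pdgfrb and Pdgfrl stay above 0 on all arrays in each panel, whereas with median centring the replicate 2 to 4 points of Pdgfc lie between -0.06 and 0.43 and those of Pdgfra probe 1 at -0.68 to -0.43.

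Other genes of the pathway were read from lists, each by the brightest probe of a gene. Their counts, and those of the markers, stand beside the 53.8% of all genes called, 28.9% as higher and 24.9% as lower. Among extracellular partners and processing proteases, 5 of 9 tested were higher and 1 lower, with a median log2 ratio of 0.58. Lrp1, a co-receptor that binds the beta receptor, stood at 2.74 ± 0.23 (limma adjusted p = 1.76e-05), and Hspg2, which encodes the basement membrane proteoglycan perlecan, at 2.62 ± 0.28. Nrp1, a co-receptor, had 1.65 ± 0.24 and Sparc, a matrix protein that binds PDGF, 0.59 ± 0.18, but Sparc had -0.25 and did not pass with median centring. Of the proteases known to activate the latent chains, Plat, for the C chain, had -0.15 ± 0.31 and did not pass. Plau, for the D chain, was lower at -0.45 ± 0.15, with a second probe that was not called the same way. Without replicate 3 no gene of this list was called lower, so Plau did not pass there. St14, another protease gene of the list, had -0.09 ± 0.11 and did not pass (limma adjusted p = 0.504). It was above background in the channel labelled RapCA on 2 of 4 arrays only.

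Of 29 signalling effectors tested downstream of the receptors, 8 were higher and 2 lower, with a median of 0.17. Without replicate 1, where 67% of all probes passed, the counts were 11 and 7. With array weights, where 76.3% of all probes passed, they were 15 and 9. The transcription factor gene Stat3 had 1.30 ± 0.05, the docking protein gene Gab1 1.04 ± 0.23, the kinase gene Mapk3 0.87 ± 0.24 and the PI3-kinase subunit gene Pik3r2 0.77 ± 0.21. With median centring, where 27.9% of all probes passed, 3 were higher and 2 lower. Neither Gab1 nor Pik3r2 passed there (limma adjusted p = 0.0552 and 0.103). Ptpn11, the phosphatase SHP2 that binds activated receptors, had ratios of 1.11, -0.08, -0.06 and -0.29 and did not pass.

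Of 10 attenuators of receptor signalling tested, 1 was higher and 3 lower, with a median of -0.25. The ubiquitin ligase gene Cbl had 0.76 ± 0.38, the phosphatase genes Ptpn2 and Acp1 had -0.47 ± 0.32 and -0.40 ± 0.27, and the feedback inhibitor gene Socs3 had -0.44 ± 0.33. Second probes of Cbl and Ptpn2 were not called the same way. Ptpn2 and Acp1 did not pass without replicate 2, 3 or 4, nor Socs3 without replicate 2 or 3 (limma adjusted p = 0.0815 to 0.122 over these). Socs3 also missed the threshold without a filter on dim probes (0.0600), with the series table (0.0568) and with ratios from the scanner software (0.0565), and Cbl, Ptpn2 and Acp1 with median centring (0.173, 0.142 and 0.183). These counts were unstable, as was the share of all probes called. Without replicate 1 they were 1 higher and 6 lower, and without replicate 2 or without replicate 3 they were 1 higher and none lower. Without replicate 4 they were 1 higher and 1 lower, and with median centring none higher and 1 lower. The share of all probes called was 49.6% in the first analysis. It was 67%, 34%, 33.6% and 39.4% without replicates 1 to 4, and 27.9% with median centring.

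Among 16 genes that growth factors including PDGF induce, 4 were higher and 7 lower, with a median of -0.05. The immediate-early factor gene Egr1 was higher at 1.94 ± 0.27 and Fosl1, an AP-1 subunit gene, lower at -3.06 ± 0.35. Klf5, a factor of growing smooth muscle, had -1.59 ± 0.13 and the chemokine gene Cxcl1 -0.55 ± 0.13, though Cxcl1 did not pass once arrays were centred on medians (limma adjusted p = 0.0803). Without replicate 2, where 34% of all probes were called, the counts were 2 higher and 4 lower. With median centring they were 1 higher and 6 lower. That setting called 27.9% of all probes, and 40.1% of those calls were higher.

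Relatives of the family differed in both directions. In the class III receptor group, to which the PDGF receptors belong, the ligand genes Kitl and Il34 were lower at -2.17 ± 0.59 and -1.58 ± 0.46, and Flt3l and Csf1 were higher at 1.12 ± 0.32 and 0.86 ± 0.20. Median centring ended the call of Csf1 (limma adjusted p = 0.218). Csf1r was the 1 receptor of that group tested besides the PDGF receptors and did not pass, at 0.02 ± 0.35. Of 7 related VEGF family genes tested, 2 were higher and 3 lower. Vegfd had 1.64 ± 0.43 and the receptor gene Flt1 1.41 ± 0.34, whereas the receptor gene Kdr had -0.75 ± 0.40 and Vegfb -0.50 ± 0.19, with a second Vegfb probe that was not called the same way. Without replicate 2 Vegfb did not pass (limma adjusted p = 0.0562), nor did Kdr with median centring (0.0731). Without replicate 2, 2 of the 7 were higher and 1 lower, and likewise with median centring. These settings called 34% and 27.9% of all probes.

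**Figure D5:**
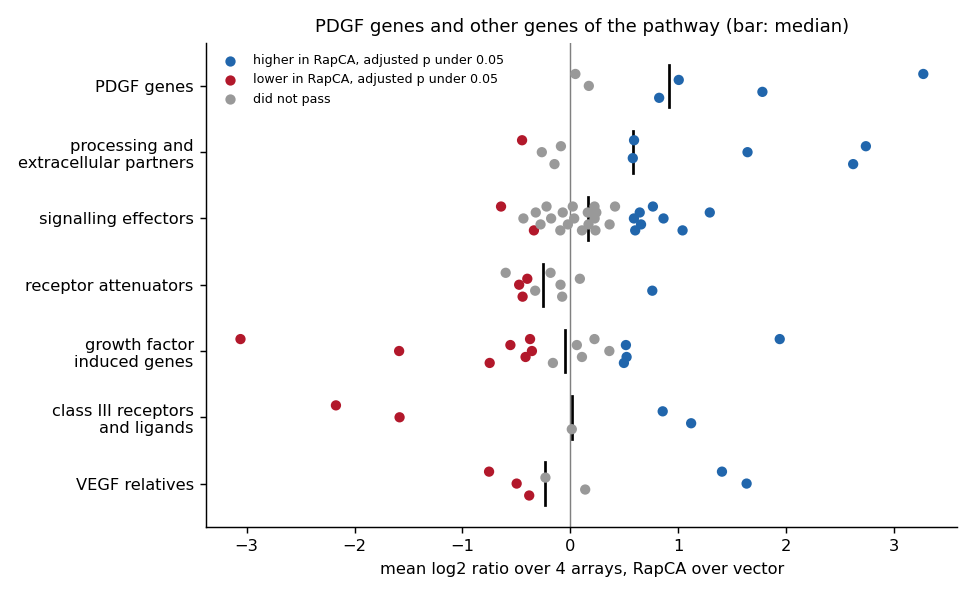
Mean log2 ratios over the 4 arrays, 1 point per gene by its brightest probe, for the 6 PDGF genes tested and 6 lists of related genes. Blue and red points passed the test as higher or lower in the channel labelled RapCA, grey points did not, and black bars mark medians. The PDGF genes have a median of 0.92 and the signalling effectors one of 0.17.

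Markers of mesenchymal cell types were read in the same way and differed among themselves. Of 8 smooth muscle markers 6 were tested, 3 were higher and none lower; Tagln had 2.13 ± 0.28, Lmod1 1.25 ± 0.07 and Acta2 0.54 ± 0.17, though Acta2 had -0.24 and did not pass with median centring, and Myh11 (0.13 ± 0.20), Smtn (0.08 ± 0.24) and Cnn1 (0.07 ± 0.20) did not pass. Without replicate 1, 5 of the 6 were higher, Myh11 among them at 0.23 (limma adjusted p = 0.0251). That setting called 67% of all probes, and 51.3% of those calls were higher. Des and Myocd were not above background on all arrays of either channel. Of 7 pericyte markers 4 were tested, 3 were higher and 1 lower; Notch3 had 2.79 ± 0.50, Anpep 2.27 ± 0.37, Cspg4 0.88 ± 0.30 and Kcnj8 -0.40 ± 0.08, and Rgs5, Abcc9 and Higd1b were not above background on all arrays of either channel. Kcnj8 was above background in the channel labelled RapCA on 3 of 4 arrays only. Its ratio depended on the processing, at -0.71 with an offset of 10 and -0.98 with the scanner software's ratios. It did not pass without replicate 2 or 3 (limma adjusted p = 0.0797 and 0.0621). Of 9 fibroblast markers 7 were tested, 5 were higher and 1 lower; Dcn had 3.88 ± 0.19, Dpt 2.76 ± 0.11, Col1a1 2.40 ± 0.37 and Pi16 2.29 ± 0.56, whereas Ly6a was lower at -0.77 ± 0.06 (limma adjusted p = 0.000645) and Thy1 (0.06 ± 0.22) did not pass. Lum and Tcf21 were not above background on all arrays of either channel. The summed linear level of the fibroblast markers tested was 295046 to 347572 in the channel labelled vector and 645945 to 799396 in the channel labelled RapCA, and that of the pericyte markers 4621 to 6865 and 10804 to 14165. For smooth muscle markers the sums were 142807 to 193601 and 313257 to 340502. Each sum adds unlike probes and rests mostly on the brightest of them. In the channel labelled RapCA these were Col1a1 and Col1a2 among fibroblast markers, at mean levels of 18.21 and 18.09. Among pericyte markers it was Cspg4, at 12.96. The sums therefore do not measure the amount of a cell type. The part of any such cell type in the PDGF values was not tested.

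Most endothelial and leukocyte markers were not tested. Pecam1, Cdh5, Tie1, Emcn and Cldn5 were not above background on all arrays of either channel, and the sums of the 3 endothelial markers tested were 660 to 832 in the channel labelled vector and 445 to 454 in the channel labelled RapCA. Of those, Vwf, at -2.03 ± 0.16, and Kdr, with the value given above, were above background on all 4 arrays in both channels. Tek had 1.16 ± 0.23 but was above background in the channel labelled vector on 2 of 4 arrays only. Ptprc, Adgre1, Itgam and Cd79a were likewise not above background. The 3 leukocyte markers tested summed to 260 to 397 and 323 to 364, and of them Lyz2, which was not above background in the channel labelled vector on any array, was at least 1.43-fold higher in the channel labelled RapCA (limma adjusted p = 0.00411), a bound against its own vector signal, which was brighter than the dimmest signal above background. Cd3e (0.11 ± 0.23) and Csf1r did not pass, though Cd3e did without replicate 1, at 0.23 (limma adjusted p = 0.0267). The endothelial and leukocyte sums are low and include the offset of 50 that background correction added to each signal before scaling.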

How the data were processed

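Total RNA was labelled with Cy5 (empty vector) or Cy3 (RapCA) and hybridised in pairs to 4 Agilent arrays, per the labels. The file headers give the scanner software as Feature Extraction 10.7.3.1, whereas 10.9 stands in the submitters' processing notes. The intensity values deposited by the authors are median pixel brightness of spot and local background, not normalized, per the file headers. The log10 ratios deposited in the scanner files and the series table are Cy5 over Cy3 after the software's background and dye correction, per the file headers; both differed by at most 5e-05 over 40929 probes, and each column of the table had a median of 0.

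Background was corrected with normexp (offset 50) and ratios normalised by loess within arrays, with control spots at no weight, outlier-marked spots (94 to 137 per array) left out and spots of a probe averaged. No spot was saturated. Levels were scaled between arrays with Aquantile. Tested were probes with all 4 arrays above background in 1 channel or both, against 0 with limma (lmFit, eBayes; at least 3 arrays) and adjusted by Benjamini-Hochberg. Where a gene was above background in 1 channel only, the fold is a lower bound against, per array, the higher of the probe's own signal and the dimmest signal above background, open to dye bias without dye swaps. Symbols came from RefSeq accessions (GRCm38.p6) for 64.8% of probes; the files name another build, so probes were not placed. The number of arrays limits the precision. The analysis was tested on simulated data. Alternatives covered offset, scaling, deposited ratios, filters, kept outlier spots, variance model, array weights, channel pairing, each array left out and 1 probe per gene.

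The members, lists and tests were chosen with earlier results of these data known. Named were the 7 PDGF genes, Rap1a and up to 4 genes of each list with the smallest p. The 3 genes nearest to Pdgfra and to Pdgfrb were also named. Plat, Plau, St14, Ly6a, Thy1, Smtn, Cnn1, and Ptpn11 as an effector, were added after their values were seen. R 4.3.3 and limma 3.58.1 were used, with Python 3.11.15, pandas 2.3.3 and matplotlib 3.10.9 for figures.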

Additional observations from a re-analysis of the deposited data

Results flagged for a closer look

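For the named genes, 69 sets of 4 array values were examined. In 7 of them, a value had a gap to its nearest neighbour that took up nearly the whole range. Chance gives about 1 in 20 independent sets, but these sets were not independent. The ratio and both channel levels of a PDGF probe counted as separate sets, as did 2 probes of a gene. For Pdgfra that value was the log2 ratio of 1.13 on replicate 1. For Pdgfc it was the vector level of replicate 1, 11.67 for the brighter probe and 10.73 for the second. Replicate 4 stood apart for Nrp1, with a log2 ratio of 1.30, and for Anpep, with 2.83. Replicate 2 stood apart for Fosl1, with -2.54, and replicate 1 for Cd3e, with -0.23.

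Control probes that the files name E1A were not used in any comparison. After normalisation on the gene probes, the median log2 ratio of Cy3 over Cy5 of their spots above background was -2.01 on replicate 1, -0.24 on replicate 2, 0.38 on replicate 3 and -0.26 on replicate 4. The amounts of control RNA added to each sample are not given in the sources used here, so these values were not used for scaling.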

How the results depend on the processing

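Pdgfrb and Pdgfrl passed under all 15 alternatives, with log2 ratios of 1.39 to 1.88 and 3.03 to 3.39. Pdgfc and Pdgfd kept their direction under all and lost their calls with median centring only. Median centring called 6549 probes, 40.1% of them higher against 53.3% in the first analysis, put the median ratio over all probes at -0.14 instead of 0.01, and left 2 PDGF genes called; the cause was not tested. Array weights called 17950 probes, for a cause not tested, and 1 probe per gene called 6647, with 12396 tested. Leaving out each array gave 7898 (without replicate 3) to 15745 (without replicate 1) probes and 4 PDGF genes each time.

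Signs turned for the brighter Pdgfra probe with median centring (-0.017), array weights (-0.0873) and without replicate 1 (-0.14, with 0.32 the highest value when 1 array was left out); for Pdgfa with median centring (-0.43 and -0.048); for Acta2 (-0.24) and Sparc (-0.25) with median centring; and for Csf1r with the software's ratios (-0.28), the series table (-0.28) and without replicate 2, 3 or 4 (-0.0908, -0.0273 and -0.00393, with 0.18 the highest value when 1 array was left out). The causes were not tested. Of the values of named genes outside the family over all alternatives, 590 kept direction and call, 25 lost the call, 5 gained it and 7 turned. Without pairing the channels of an array (no replicate block), 10269 probes and 4 PDGF genes were called; Acp1, Ptpn2 and Socs3 lost their calls.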
